A study of Mus musculus with 4 samples.

Results

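The 10 genes described here encode the hypoxia-inducible factor Hif1a and 9 proteins of glucose uptake, glycolysis and the branch point after it: Slc2a1, Hk1, Hk2, Pfkl, Pfkp, Aldoa, Pgk1, Ldha and Pdk1. They were chosen by name as known glycolysis and hypoxia response genes, and each matched 1 of the 34315 features in a table of read counts. Glycolysis splits glucose into pyruvate and yields ATP without oxygen. In low oxygen the HIF-1 alpha protein escapes prolyl hydroxylation and degradation, pairs with Arnt and binds short DNA elements near genes of glucose transport, glycolysis and pyruvate diversion. Blood stem cells sit in a bone marrow niche described as poor in oxygen, and are known for relying on glycolysis more than on respiration. HIF-1 alpha is controlled largely at the protein level, so its mRNA is not a measure of the pathway's activity.

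Messenger RNA was selected by its polyA tail from haematopoietic stem cells freshly sorted from C57BL/6 mouse bone marrow by the side population, KSL and CD150+ phenotype. The wild-type group has 4 libraries of 40709659 to 47408552 reads, which the labels call technical replicates of biological replicate 1. The other arm is labelled Dnmt3a-KO, lacking a de novo DNA methyltransferase, and it enters only as the authors' mean count, log2 fold change and p-value for each feature. The means of deleting Dnmt3a, any pooling of mice and their age remain not given in the sources used here. Counts were divided by a size factor for each library, and the authors' mean was put on the same scale, so "normalised counts" below are comparable between samples but not between genes of different length. Dnmt3a itself stood at 8229, 8569, 5400 and 5208 normalised counts in wild-type libraries 1 to 4 and at 8424 in the arm labelled knockout. Such a count would not show a deletion that leaves the rest of the transcript in place, so the arm is called by its label throughout.

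Libraries 1 and 2 were close to each other, as were libraries 3 and 4, but the pairs differed. The mean chi-square per feature within the pairs was 2.03 and 1.87, more than counting noise alone gives. The median was 0.763 within the first pair and 0.682 within the second, against 13.0 between libraries 1 and 3. Each pair was therefore averaged and counted as 1 sample, and the spread between the pairs is the only error available, since the labels name no second animal. Stem cell markers were all detected (10 of 10) and held 0.331% to 0.392% of wild-type counts and 0.269% in the arm labelled knockout. Of the 10 neutrophil markers, also all detected, the summed share was 0.136% in library 1, 0.135% in library 2, 0.0381% in library 3, 0.0384% in library 4 and 0.0687% for the arm labelled knockout. Erythroid markers (11 features, none at 0) held 0.103% to 0.130% in wild type and 0.0370% in that arm, and 5 of them fell there in the authors' deposited table, in which 3.70% of all features tested fell. Of the other lists, 4 of 6 mast cell and basophil, 4 of 7 macrophage, 3 of 6 megakaryocyte, 3 of 8 lymphoid and 2 of 7 stromal and endothelial markers fell and none rose. Mast cell and basophil markers held 0.00229% to 0.00392% in wild type and 0.000251% in the arm labelled knockout. Megakaryocyte markers held 0.0945% to 0.106% and then 0.118%, but only Vwf among them was higher in that arm. It went from a wild-type mean of 21240 normalised counts to 59985. The rest of that list, Pf4, Itga2b, Gp9, Gp5 and Ppbp, lay below all 4 wild-type libraries. The part of these cells in the values below was not tested, and in such bulk samples fewer cells of a type and less RNA per cell cannot be told apart.

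The promoters of 5 members are shown because Pfkp, Slc2a1 and Hk2 had the highest ratios between the arms, Pdk1 the lowest ratio, and Ldha the highest level. Each is the 300-base window from 250 bases before to 50 after the outermost annotated start, taken from RefSeq on build GRCm38.p6, which is not the mm9 build of the count table. Capitals mark the core of the hypoxia response element, searched as ACGTG and GCGTG on both strands, so that the reverse complements CACGT and CACGC are also in capitals and CACGTG counts as a match on each strand.
Pfkp (chr13:6648722-6649021, minus strand): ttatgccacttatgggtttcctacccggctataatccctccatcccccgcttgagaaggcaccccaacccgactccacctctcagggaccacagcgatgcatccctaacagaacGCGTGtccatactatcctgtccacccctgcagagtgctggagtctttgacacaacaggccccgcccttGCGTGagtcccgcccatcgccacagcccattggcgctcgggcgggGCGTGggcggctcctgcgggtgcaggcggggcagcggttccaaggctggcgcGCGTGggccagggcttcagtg
Slc2a1 (chr4:119108495-119108794, plus strand): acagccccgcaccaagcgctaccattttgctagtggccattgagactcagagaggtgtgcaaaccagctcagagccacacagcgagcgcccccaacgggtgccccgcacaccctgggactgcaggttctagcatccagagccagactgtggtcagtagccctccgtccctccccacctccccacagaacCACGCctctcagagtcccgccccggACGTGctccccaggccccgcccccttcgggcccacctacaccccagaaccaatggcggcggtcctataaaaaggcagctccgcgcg
Hk2 (chr6:82774405-82774704, minus strand): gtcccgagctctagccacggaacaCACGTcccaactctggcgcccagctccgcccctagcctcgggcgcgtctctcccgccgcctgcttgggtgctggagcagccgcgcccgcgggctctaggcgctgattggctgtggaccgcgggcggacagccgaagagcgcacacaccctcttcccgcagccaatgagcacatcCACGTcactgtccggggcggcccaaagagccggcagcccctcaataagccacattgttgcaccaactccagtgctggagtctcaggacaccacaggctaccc
Ldha (chr7:46845554-46845853, plus strand): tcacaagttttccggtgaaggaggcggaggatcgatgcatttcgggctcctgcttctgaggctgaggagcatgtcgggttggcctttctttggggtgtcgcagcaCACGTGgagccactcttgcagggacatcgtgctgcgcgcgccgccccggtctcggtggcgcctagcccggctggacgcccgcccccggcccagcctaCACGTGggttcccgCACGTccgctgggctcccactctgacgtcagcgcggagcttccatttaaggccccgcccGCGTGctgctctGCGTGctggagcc
Pdk1 (chr2:71872974-71873273, plus strand): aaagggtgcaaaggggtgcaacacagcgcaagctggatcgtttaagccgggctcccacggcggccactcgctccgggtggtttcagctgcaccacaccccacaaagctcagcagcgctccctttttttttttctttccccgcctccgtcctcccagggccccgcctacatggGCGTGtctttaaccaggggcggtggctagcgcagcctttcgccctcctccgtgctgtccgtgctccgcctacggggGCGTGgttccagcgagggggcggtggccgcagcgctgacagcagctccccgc

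All 10 members matched the promoter table, with 15 windows in all, since Hk1, Ldha and Pdk1 have 2 annotated starts and Aldoa has 3, of which a pair overlap. ACGTG lay in 8 of the 15 windows, against 19.6% of all 32851 windows in the table, and in at least 1 window of 7 members. The overlapping Aldoa windows share their match, which is thus counted in both. Either core lay in 12 of the 15, against 43.8% of all windows. Motifs that hold CpG, as these do, are more frequent in windows with at least 60% G and C. Among those, ACGTG was in 8 of the members' 11 and in 26.5% of all 9690. Either core was in 11 of the 11 and in 69.2% of the 9690. The outermost Ldha window held the most matches, 7, of which 5 were ACGTG. The Pfkp window, by contrast, held 4 matches, all of GCGTG, and the Pdk1 window held 2 of the same core. A match is a string of letters and not a measured binding site. The members were chosen as known glycolysis and hypoxia response genes, so an excess over all windows is no independent evidence.

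In wild-type stem cells Ldha and Aldoa were the most abundant members per length. On the scale of normalised counts per kb of exon, Ldha, which converts pyruvate to lactate, stood at 14275 in libraries 1 and 2 and 17561 in libraries 3 and 4. Aldoa, the aldolase that splits fructose bisphosphate, stood at 8019 and 10576. Hk1, the ubiquitous hexokinase, stood at 4511 and 4798, and Pfkl, the liver-type phosphofructokinase, at 2326 and 2373. Pdk1, a kinase that inactivates pyruvate dehydrogenase, followed at 1179 and 1340. The ranges of the pairs did not overlap between neighbours down to Pdk1 and Pfkp. Below that the order is not resolved: Pfkp (981 and 1081), Pgk1 (912 and 1017, an uncertain count), Hif1a (733 and 942), Slc2a1 (705 and 964) and Hk2 (577 and 724) each overlapped the next. Of all features with a wild-type mean of at least 10 normalised counts, 0.459% had a higher level per kb than Ldha and 35.1% a higher one than Hk2.

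**Figure D1:**
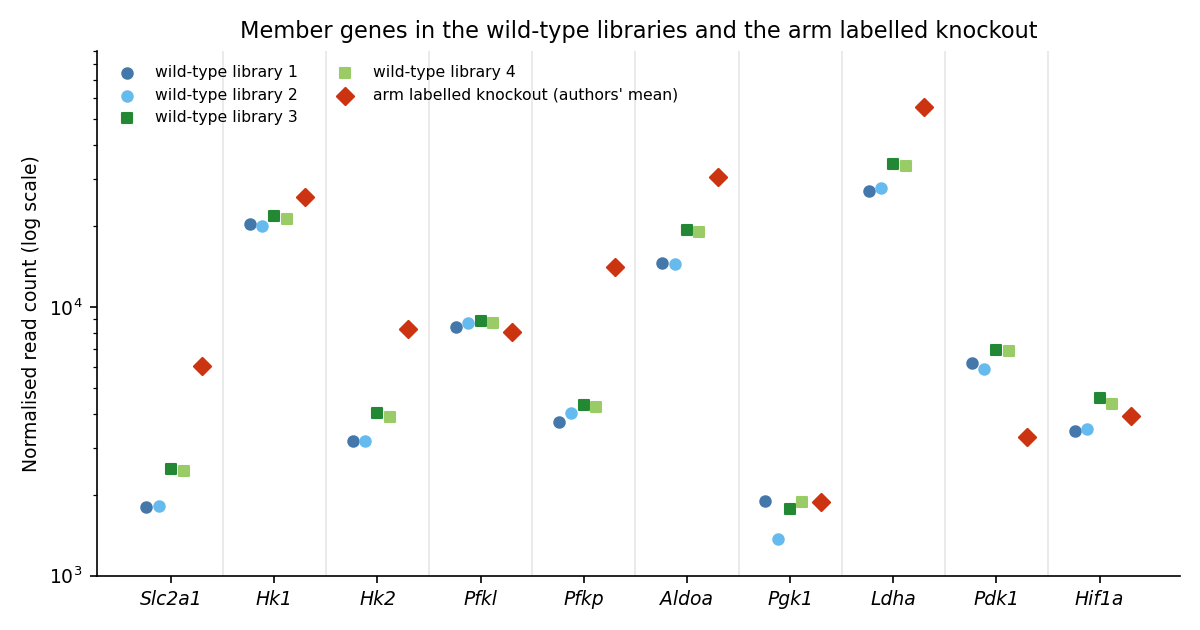
Normalised read counts (vertical log axis) of the 10 members in the 4 wild-type libraries (circles and squares, 1 point a library) and in the authors' mean of the arm labelled knockout (diamonds). For 6 members the diamond lies above all 4 wild-type points (for Hk1 this depends on the scaling), for Pfkl and Pdk1 it lies below them, and for Pgk1 and Hif1a it lies within their range.

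No member was called between the genotypes, the comparison for which the table was made. By the authors' deposited table, 0 of the 10 had an adjusted p under 0.05, where 6.84% of the 21778 features tested did (3.15% higher and 3.70% lower), and the members' adjusted p ranged from 0.231 to 1. No unadjusted p was at hand. The smallest rise called for any feature was 5.69-fold and the smallest fall 5.72-fold, and no member differed by that much. The sizes that follow are therefore values without a call. The authors' deposited table gave the 10 members a median log2 value of 0.58, beside 0.02 for the 13161 features tested with a mean of at least 100 normalised counts over both arms, a level that all members passed. By the same source, 3 of 10 members were at least 2-fold higher and 0 at least 2-fold lower, against 16.0% and 15.4% of those features. The knockout mean lay above all 4 wild-type libraries for 6 members, against 42.5% of features, and below all 4 for 2, against 40.7%. With libraries scaled by their totals, Hk1 no longer lay above all 4.

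Slc2a1 and Hk2, of the first steps of glucose use, had higher counts in the arm labelled knockout without being called. Slc2a1, the GLUT1 glucose transporter (chromosome 4, 118781350 to 118809934, mm9), had 1797, 1814, 2489 and 2451 normalised counts in wild-type libraries 1 to 4 and 6037 in the arm labelled knockout. That is 3.34 times the first pair and 2.44 times the second, with adjusted p 0.365 by the authors' deposited table. The arm's mean lay well clear of all wild-type libraries, which themselves differed by pair. Hk2, the inducible hexokinase that traps glucose as glucose 6-phosphate (chromosome 6, 82675021 to 82724448), had 3174, 3167, 4046 and 3909 in wild type and 8306 in the arm labelled knockout. The ratio was 2.62 against libraries 1 and 2 and 2.09 against libraries 3 and 4 (adjusted p 0.518 in the authors' deposited table). Hk1 (chromosome 10, 61731603 to 61842656), which does the same reaction, had 20365, 20105, 21749 and 21297 in wild type and 25674 in that arm, a log2 ratio of 0.30 that became -0.04 when libraries were scaled by their totals. Hk1 thus lay just above the wild-type libraries, and its side depended on the scaling. The uncharacterised locus 2210417K05Rik overlaps Hk1 on the other strand, with 42 to 92 reads a library.

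The phosphofructokinases, which commit sugar to glycolysis, differed from each other. Pfkp, the platelet-type subunit (chromosome 13, 6579120 to 6647970), had 3743, 4034, 4322 and 4247 normalised counts in wild type and 14077 in the arm labelled knockout. This was the largest ratio of any member, 3.62 against libraries 1 and 2 and 3.29 against libraries 3 and 4, with adjusted p 0.231 by the authors' deposited table. Among the 13161 features tested with a mean of at least 100, 12.1% had a larger absolute log2 fold change. Pfkp shares 276 bases with Pitrm1 on the other strand, which stood at log2 -0.57 by the authors' deposited table. Pfkl (chromosome 10, 77449694 to 77472541) had 8462, 8725, 8838 and 8702 in wild type and 8068 in the arm labelled knockout, a log2 ratio of -0.11. It was the steadiest member between the wild-type pairs, and its arm mean lay only slightly under the lowest library.

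The enzymes of the later steps included the largest counts. Aldoa (chromosome 7, 133938748 to 133943961) had 14606, 14469, 19351 and 18997 normalised counts in wild type and 30529 in the arm labelled knockout. Its ratio was 2.10 against libraries 1 and 2 but 1.59 against libraries 3 and 4 (adjusted p 0.722 in the authors' deposited table). Ldha (chromosome 7, 54101174 to 54110997) had 27137, 27710, 34011 and 33460 in wild type and 55464 in that arm. The ratio was 2.02 against the first pair and 1.64 against the second (adjusted p 0.720 in the authors' deposited table). Aldoa and Ldha, both higher in libraries 3 and 4, were thus at or above 2-fold only against libraries 1 and 2.

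Pgk1, the first ATP-yielding enzyme of glycolysis (chromosome X, 103382463 to 103399038), showed no separation. It had 1890, 1374, 1765 and 1877 normalised counts in wild type and 1877 in the arm labelled knockout, inside the wild-type range, and its log2 ratio of 0.12 became -0.21 with library totals. Its count is uncertain. Libraries 1 and 2, which were otherwise close, gave 1797 and 1313 raw reads, a chi-square of 76.4. The other members gave between 2.53e-05 and 11.1. Among 8148 features that averaged at least 1000 reads in these libraries, 16 had a larger chi-square than Pgk1. In GENCODE vM21 transcripts, 68.0% of the 50-base stretches of Pgk1 also occur, letter for letter, in 5 annotated pseudogenes. The part of those copies in the difference between libraries 1 and 2 was not tested, and the authors' treatment of reads with several matches is likewise unknown here. The locus HAG_045116 also overlaps Pgk1 by 436 bases on the other strand, with 507, 402, 563 and 577 reads.

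The same measure was taken along the pathway, for genes named here after their values were seen. Of Gpi1, Tpi1 and Pkm2, neighbours of Pgk1 in glycolysis, wild-type means were 9334, 8591 and 14631 normalised counts per kb, and 25.3%, 7.51% and 34.4% of their 50-base stretches were shared with another gene (Pkm2 is Pkm in that annotation). Gapdh, the enzyme just before Pgk1, was at 952 per kb, with 82.5% shared and 209 pseudogenes among the sharers. Pgk1 stood at 965 and Pgam1, the next enzyme, at 361 with 41.5% shared. Eno1, at 3768 per kb, was 72.2% shared. The part of sharing in these levels was not tested, so those of the most shared genes, Gapdh, Eno1, Pgk1 and Pgam1, are uncertain. For the other members the shared part was 17.1% for Pfkp, 16.6% for Ldha, 13.5% for Aldoa, 7.25% for Hif1a and at most 2.55% for the rest.

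Pdk1 was the member with the lowest ratio between the arms, without being called. Pdk1 (chromosome 2, 71711329 to 71741915) keeps pyruvate out of the mitochondrial acetyl-CoA pool by phosphorylating pyruvate dehydrogenase. It had 6203, 5887, 6893 and 6843 normalised counts in wild type and 3288 in the arm labelled knockout. All 4 libraries lay above the arm's mean, which was 0.544 of libraries 1 and 2 and 0.479 of libraries 3 and 4 (adjusted p 0.658 in the authors' deposited table).

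Hif1a mRNA (chromosome 12, 75008854 to 75048517) did not separate the arms. It had 3445, 3514, 4585 and 4353 normalised counts in wild type and 3923 in the arm labelled knockout, above libraries 1 and 2 and below libraries 3 and 4. The log2 ratio was 0.17 against the first pair and -0.19 against the second (adjusted p 1 over all 4 in the authors' deposited table).

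**Figure D2:**
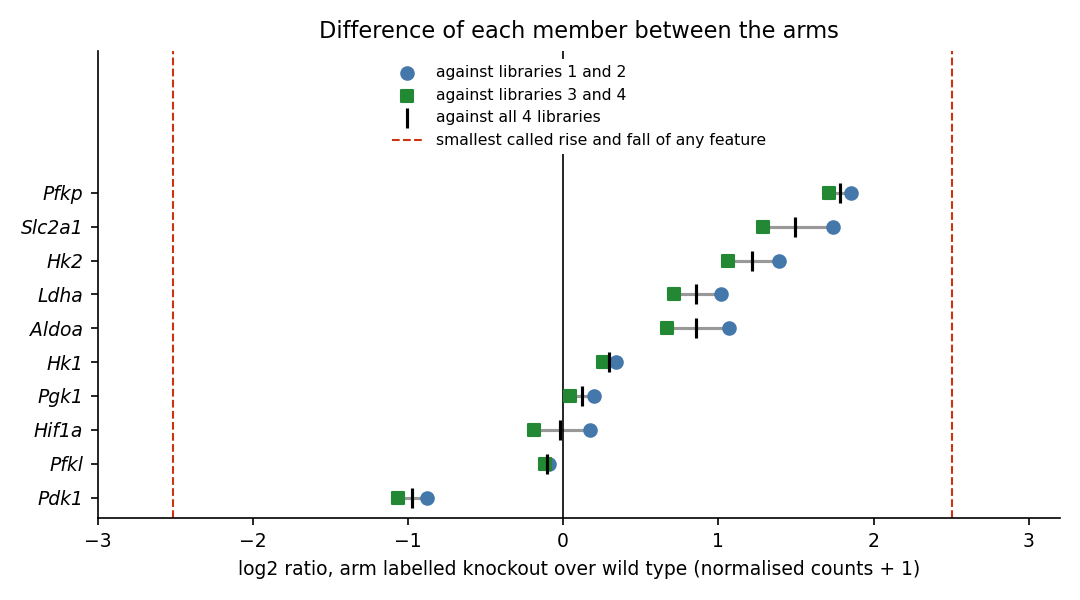
Log2 ratio of the arm labelled knockout over wild type (horizontal axis, normalised counts plus 1) for each member against libraries 1 and 2 (circles), libraries 3 and 4 (squares) and all 4 (bars). All members lie between the dashed lines, the smallest rise (5.69-fold) and fall (5.72-fold) called for any feature, and the bars run from 1.78 for Pfkp to -0.97 for Pdk1.

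Between the wild-type pairs, all 10 members had a higher mean in libraries 3 and 4 than in libraries 1 and 2, against 55.2% of the features whose mean was at least 100. For 8 of them both libraries of the second pair lay above both of the first, against 48.3% of features, and Pfkl and Pgk1 overlapped. The log2 difference ran from 0.03 for Pfkl to 0.45 for Slc2a1, with a median of 0.24 beside 0.05 over those features. Pfkl took the other sign with library totals (-0.04) and with upper-quartile scaling (-0.05), and Pgk1 without library 2 (-0.05, against 0.16 with all 4 libraries and 0.41 without library 1). The pairs are not labelled groups, so no test was made. Neutrophil and macrophage marker shares moved the opposite way, down in libraries 3 and 4. Shares of the stem cell, erythroid, megakaryocyte, mast cell and basophil, lymphoid, and stromal and endothelial markers moved the same way as the members. The part of these cells in the members' values was not tested. On the log2 scale libraries 3 and 4 stood closer than libraries 1 and 2 to the arm labelled knockout for 7 members and farther from it for Pfkl, Pdk1 and Hif1a.

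Shares within an enzyme family do not depend on scaling between samples. They are given here as percent of the family's counts per kb of exon. Among phosphofructokinases, Pfkp held 20.3% and 21.8% in the wild-type pairs, libraries 1 and 2 first, but 54.3% in the arm labelled knockout. Pfkm, the muscle-type subunit, held 31.7% and 30.3% in the wild-type pairs and 12.3% in that arm, where Pfkl went from 48.0% and 47.9% to 33.4%. The leading subunit by mRNA was thus Pfkl in every wild-type library and Pfkp in the arm labelled knockout. None of the 3 genes was called, and Pfkm was at -0.92 on the log2 scale (adjusted p 0.691) by the authors' deposited table.

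Hexokinase mRNA was mainly Hk1 in both arms. Hk1 held 79.2% and 81.0% in the wild-type pairs and 68.5% in the arm labelled knockout, while Hk2 held 10.1% and 12.2% and then 18.1%. Hk3, a hexokinase of myeloid cells, made up 10.7% and 6.71% and then 13.4%. Its wild-type pairs differed in the direction of the neutrophil marker share, while its share in the arm labelled knockout lay above both although the neutrophil share there lay between them, whose part in this was not tested. Of the class I glucose transporters, Slc2a1 held 26.0% and 26.9% in wild type and 41.9% in the arm labelled knockout, the rest being almost all Slc2a3, the GLUT3 transporter. Slc2a3 thus remained the larger of the pair in both arms by this measure.

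Among the 4 pyruvate dehydrogenase kinases, the shares of Pdk1 and Pdk4 differed between the arms in opposite directions. Pdk1 held 31.0% and 26.5% in the wild-type pairs and 13.3% in the arm labelled knockout. Pdk4, a kinase induced by fasting and fatty acid use, held 1.31% and 1.90% and then 16.3%. Pdk4 was called. It had 158, 184, 339 and 322 normalised counts in wild type and 2709 in the arm labelled knockout, and the authors' deposited table gives a 10.7-fold rise (adjusted p 0.00447). Against libraries 1 and 2 the ratio was 15.8 and against libraries 3 and 4 it was 8.20. Pdk3 stayed the largest at 53.5% and 53.2% in wild type and 63.2% in that arm, and Pdk2 went from 14.1% and 18.5% to 7.22%.

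The other families had 1 main member in both arms. Aldoa held 95.4% and 94.8% of aldolase counts per kb in the wild-type pairs and 97.5% in the arm labelled knockout, with Aldoc as the rest. Ldha held 88.5% and 85.5% of lactate dehydrogenase and 87.2% in that arm, between the pairs, with Ldhb as the rest. Pgk2, a sperm form of phosphoglycerate kinase, had 0 reads in every wild-type library, where 3 counts, the limit that 0 reads allow, amount to at most 3.16 normalised counts. Hif1a held 80.3% and 79.1% of the HIF alpha subunits and 67.3% in the arm labelled knockout. Epas1, which encodes HIF-2 alpha, held 5.14% and 8.97% and then 20.8%. Epas1 was not called (log2 1.73, adjusted p 0.254 by the authors' deposited table), and its wild-type pairs averaged 250 and 570 normalised counts.

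**Figure D3:**
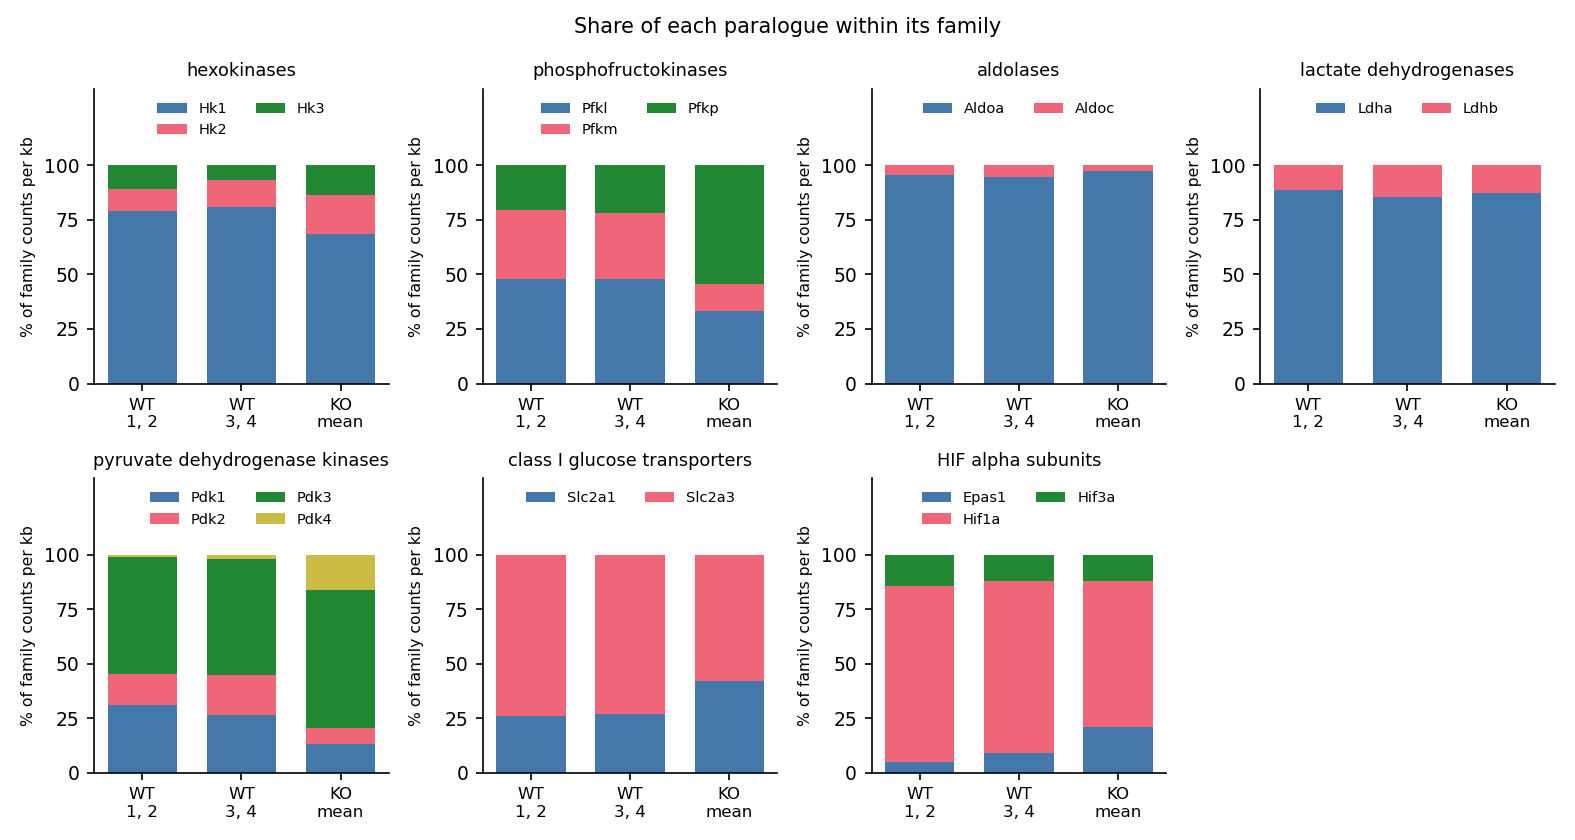
Share of each paralogue within 7 enzyme or factor families, as percent of the family's counts per kb of exon (vertical axis), in wild-type libraries 1 and 2, wild-type libraries 3 and 4, and the authors' mean of the arm labelled knockout (KO); paralogues under 1% everywhere are not drawn. Pfkp goes from 20.3% and 21.8% in the wild-type pairs to 54.3%, and Pdk4 from 1.31% and 1.90% to 16.3%.

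The members were set beside 5 lists of related genes, counted over those with a mean of at least 10 normalised counts over both arms. Among 23 other glycolytic enzymes and sugar transporters, 1 rose and 1 fell, against 3.72% and 4.30% of all 17684 features at this minimum, and the list's median log2 value was 0.13 by the authors' deposited table. Eno2, the neuronal form of enolase, rose 9.82-fold (adjusted p 0.00659 by the authors' deposited table). It had 229, 251, 223 and 213 normalised counts in wild type and 2263 in the arm labelled knockout, so its wild-type pairs nearly coincided. Pklr, the pyruvate kinase of liver and red cells, fell 101-fold in the authors' deposited table (adjusted p 3.60e-07). It went from 516, 511, 292 and 292 normalised counts to 2.64, a mean of 2 raw reads, in the arm labelled knockout. The erythroid marker share above, most of it Car2, was also lower in that arm. Between the wild-type pairs that share was higher in libraries 3 and 4, where Pklr was lower. The part of erythroid cells in the Pklr values was not tested. Among the uncalled genes, Pfkfb3, whose product makes the activator of phosphofructokinase, stood at log2 2.01 (adjusted p 0.148) by the authors' deposited table and Bpgm, which makes 2,3-bisphosphoglycerate, 1.88 (0.195). Fbp1, the opposing bisphosphatase, was at -1.42 (0.409) and Hk3 at 1.15 (0.553) in the same table.

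Genes of lactate and pyruvate fate had 1 rise, that of Pdk4, and 0 falls among 21 measured, against the same 3.72% and 4.30% of features, with a median of 0.23 on the log2 scale of the authors' deposited table. The malic enzyme Me1 was at 1.91 (adjusted p 0.186), pyruvate carboxylase Pcx at -1.38 (0.430), Pdk2 at -1.08 (0.60) and the D-lactate dehydrogenase Ldhd at 1.05 (0.612) in the authors' deposited table. Of 8 measured genes of the pentose phosphate pathway, the side route from glucose 6-phosphate to ribose and NADPH, 0 were called, against 8.02% of features in either direction, and 7 had a negative log2 value by the authors' deposited table, the median being -0.35. Of all features at this minimum, 51.7% had a negative value. The lowest were Rpia, which makes ribose 5-phosphate, at -1.02 (adjusted p 0.635), transketolase Tkt at -0.58 (0.861), H6pd at -0.52 (0.883) and Pgls at -0.51 (0.889) in the same table. The Tkt feature also carries the name of the microRNA Mir3076.

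The regulators of HIF had 0 calls among 18 measured genes, against 8.02% of features, and a median of 0.32 on the log2 scale of the authors' deposited table, beside -0.04 for all features. Besides Epas1, the prolyl hydroxylase Egln3, itself a HIF target, was at 1.49 (adjusted p 0.368), the coactivator Crebbp at 1.29 (0.477) and the asparaginyl hydroxylase Hif1an at 1.17 (0.540) in the authors' deposited table. Meis1, a homeobox factor known to drive Hif1a in stem cells, had 16420, 16077, 16257 and 15916 normalised counts in wild type and 7650 in the arm labelled knockout, and is named here after its value was seen. Its log2 value was -1.08 (adjusted p 0.60) by the authors' deposited table.

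HIF target genes outside glycolysis held 9 of the 12 calls in the 5 lists. Of 34 measured, 8 rose and 1 fell, against 3.72% and 4.30% of all features at this minimum, and the list's median log2 value was 0.85 by the authors' deposited table, beside -0.04 for those features. The list was drawn up with earlier results of these data known, so it is no independent evidence of a direction. Vegfa, the vascular growth factor, rose 17.8-fold, from 780, 825, 592 and 610 normalised counts to 12506 (adjusted p 0.000497 in the authors' deposited table). Its wild-type pairs differed little beside that ratio.

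Other genes of that list rose from wild-type pairs that were further apart. Ddit4, an inhibitor of mTORC1, rose 9.04-fold by the authors' deposited table, from wild-type pair means of 1356 and 2354 to 16786. The transcriptional repressor Bhlhe40 rose 10.1-fold in that table, and its ratio was 21.8 against libraries 1 and 2 and 6.57 against libraries 3 and 4. Lox, the collagen cross-linking oxidase, rose 12.7-fold in the authors' deposited table, with ratios of 28.2 and 8.29 against the same pairs. For these 3 genes, as for Aldoa and Ldha, libraries 3 and 4 lay between libraries 1 and 2 and the arm labelled knockout.

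Kitl, the ligand of the stem cell receptor Kit, rose 10.6-fold and the ubiquitin ligase adaptor Wsb1 6.28-fold in the authors' deposited table. Pgf, a relative of Vegfa, went from 2.09 to 9.54 normalised counts in the wild-type libraries to 297 in the arm labelled knockout, and passed the minimum level through that arm alone. Angptl4, an inhibitor of lipoprotein lipase, was the gene that fell, 11.9-fold in the authors' deposited table (adjusted p 0.0032), from 582, 590, 435 and 491 to 42.8. The authors' deposited table placed the uncalled genes of this list that differed most, at a mean of at least 100, at log2 values of 1.43 to 1.76: Tfrc, Cxcr4, Mxi1 and Plod2. Several of these targets are also known to respond to other signals, so the list does not measure oxygen response alone.

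**Figure D4:**
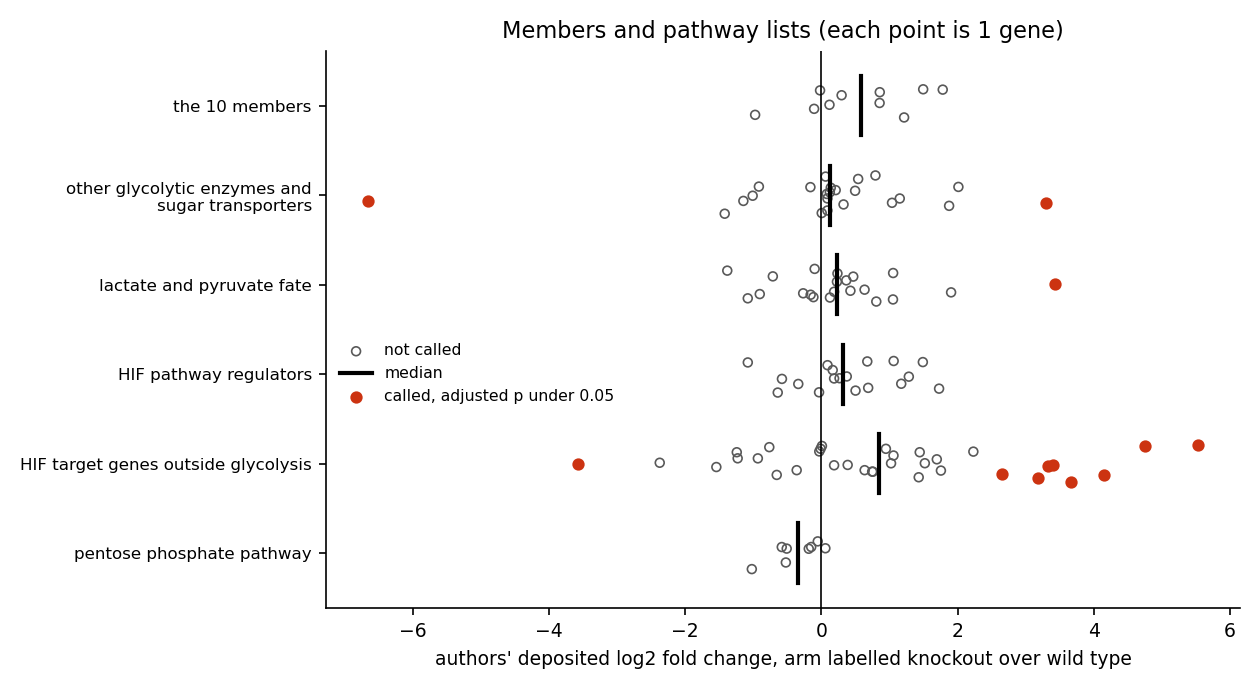
Authors' deposited log2 fold change of the arm labelled knockout over wild type (horizontal axis) for the 10 members and for each list, 1 point a gene with a mean of at least 10 normalised counts. Filled points are called at an adjusted p under 0.05 and bars are medians: none of the members is filled, and 9 of 34 HIF target genes outside glycolysis are.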

How the data were processed

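RNA was made into TruSeq libraries after polyA selection, per the labels' protocols. The named kit keeps no strand, so sense and antisense reads of overlapping features are mixed. Read counts per feature were deposited by the authors for each wild-type library, in a table for which the submitters' processing notes name build mm9 and the tool DESeq without its role. Aligner, counter and annotation: not given in the sources used here. A length-scaled signal deposited by the authors kept the same ratio to the count in every library (relative spread 3.66e-14) and served only to obtain exon lengths. The mean count of the arm labelled knockout was also deposited by the authors, as an unscaled signal. The log2 fold change deposited by the authors was knockout over wild type. The p-value deposited by the authors was read as adjusted because of tied values, found in 9569 of the 13161 features averaging at least 100.

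Size factors by the median of ratios scaled the wild-type counts (0.951, 0.955, 1.05 and 1.06), and the knockout mean was raised by 0.40 on the log2 scale, the median offset to the authors' fold change over 11936 features. Log2 ratios had 1 normalised count added. The 8 per-library columns of the arm labelled knockout match no sample here and were not used, and no test between arms was run. A chi-square per feature of at least 20 reads compared libraries, tested on simulated data. Members and lists were chosen with earlier results of these data known. All members were named, and in each list the called genes (1 is not reported here) and the 4 uncalled with the largest deposited fold changes at a mean of at least 100. Python 3.11.15, numpy 2.4.6 and pandas 2.3.3 were used.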

Additional observations from a re-analysis of the deposited data

How the results depend on the processing

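The number of members called stayed at 0 in each direction with adjusted p thresholds of 0.1 and 0.01. The median log2 ratio of the members was 0.58, and scaling by library totals gave 0.24 while moving the median of all features with a mean of at least 100 by -0.34, so relative to those features it was 0.55 and 0.56. Members at least 2-fold higher numbered 3, 5 against libraries 1 and 2 alone, the added genes being Aldoa and Ldha, and 2 with library totals, where Hk2 is at log2 0.88. Members at least 2-fold lower numbered 0, and 1, Pdk1, with library totals, with the knockout scale set from the median ratio, and against libraries 3 and 4 alone. Leaving out single libraries gave medians of 0.54 to 0.62, and 0 to 1 members at least 2-fold lower, the 1 being Pdk1 without replicate 2. Slc2a1, Hk2, Pfkp, Aldoa and Ldha kept a positive log2 ratio and Pfkl and Pdk1 a negative one in all 10 alternatives. Hk1 and Pgk1 each turned negative in 1, and Hif1a was positive in 4 and negative in 6. The pentose phosphate median was -0.51 and that of HIF targets 0.99 with no minimum level. No paired analysis was possible because the per-library columns of the arm labelled knockout match no sample here and were not used, which leaves its mean alone. Depth did not limit the members, whose lowest count was 1313 reads, but 1 biological replicate per the labels leaves the spread between mice unmeasured.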
